A study of Mus musculus with 10 samples.

Results

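Receptors, adaptors and binding proteins of the insulin-like growth factor (IGF) and insulin pathway were followed in NSC/NPCs, cultured neural stem and progenitor cells from the subependymal zone (SEZ) of adult mice, from proliferation to the onset of differentiation. The genes were chosen by name: the receptor genes Igf1r, Insr and Igf2r, the adaptor genes Irs1 and Irs2, and the binding protein genes Igfbp2, Igfbp3, Igfbp4, Igfbp5 and Igfbp7. These 10 genes were found by their Ensembl identifiers among the 48795 genes listed, and 9 of them passed the filter on low counts. Igfbp7 did not pass, and its values are given without a main test.

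RNA-seq was carried out on 10 libraries in 4 groups. WT PRO (3 libraries) and p27KO PRO (2) were neurospheres, floating aggregates of dividing cells, collected at 3 days in vitro (DIV) with EGF at 20 ng/ml and FGF at 10 ng/ml. WT DIFF (3) and p27KO DIFF (2) were cells of secondary neurospheres attached to Matrigel for 2 DIV with FGF and then kept for 24 h without mitogens in 2% fetal bovine serum (2 + 1 DIV). PRO and DIFF therefore differed in attachment, mitogens and serum together, and these cannot be told apart. All cultures came from the SEZ of mice aged 10 weeks. The genotype is labelled WT or Cdkn1b (p27KO), a line that the study's methods keep on a C57BL/6 J background. For the 4 libraries labelled p27KO, the titles and the genotype field name p27, whereas the free-text description names WT cells, and this conflict bears on every comparison between genotypes. The labels call the libraries biological replicates and do not say whether each came from a different animal.

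IGF1, IGF2 and insulin act through the tyrosine kinase receptors IGF1R and INSR, which phosphorylate the adaptors IRS1 and IRS2. The adaptors recruit PI3-kinase, and AKT then drives the mTOR branch and holds the FoxO transcription factors out of the nucleus. IGF2R takes up and degrades IGF2, and the secreted IGFBPs bind IGFs outside the cell and set how much reaches the receptors. In the SEZ, IGFs are known to act on the growth and differentiation of NSC/NPCs, and insulin-like signals are a usual requirement of neurosphere culture.

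Totals were 19190068 to 25291674 estimated counts per library. Cdkn1b, the targeted gene, was still counted in the libraries labelled p27KO, called p27KO here by their label alone. Its level is given in CPM, the count of a gene scaled to the library total. In neurospheres it was at 90.7 and 114 CPM in p27KO and at 103 to 112 CPM in WT. At 2 + 1 DIV it was at 137 and 140 CPM in p27KO and at 205 to 209 CPM in WT. Counts over the whole gene do not show whether a part of it is deleted. Genotype coincided with the sex of the cells. Xist was at 2258 to 3595 CPM in the 4 libraries labelled p27KO and at most at 2.57 CPM in WT, so that genotype and sex cannot be told apart. The 10 neural stem and progenitor markers summed to 8007 to 9637 CPM in all libraries, but 4 rose and 3 fell from PRO to DIFF in WT and 5 rose and 3 fell in p27KO. Nes went from 1515 to 2012 CPM in WT PRO to 156 to 238 CPM in WT DIFF, and Slc1a3 from 650 to 831 CPM to 2103 to 2567 CPM, and the part of such shifts in the stage changes given here was not tested. The 8 microglial markers summed to at most 0.553 CPM, with C1qa and C1qb at 0. Neuronal markers (7) summed to 17.8 to 91.6 CPM, oligodendrocyte lineage markers (8) to 139 to 287 CPM, and fibroblast markers (8) to 2.15 to 26.4 CPM, with Fap at 0.

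The question of the stage comparison is which components of the pathway change when NSC/NPCs leave mitogens. In WT cells, the transcripts of the IGFBPs changed most: Igfbp5 rose 14.6-fold, while Igfbp3, Igfbp4 and Igfbp2 fell by 8.33-, 6.87- and 1.92-fold. Both adaptors fell by about 1.5-fold to 1.6-fold, and of the receptors only Igf2r passed the test. Of the 9 genes tested, 1 was higher and 6 were lower at 2 + 1 DIV in WT cells at an adjusted p under 0.05 (two-sided quasi-likelihood test of edgeR, Benjamini-Hochberg adjusted), where 67.4% of all 12859 genes tested were called, 33.5% higher and 33.9% lower. Among p27KO libraries, 1 was higher and 5 were lower, where 57.7% of all genes tested were called, 27.5% higher and 30.2% lower. With most of the transcriptome called, a call alone sets none of these genes apart, and the sizes are read against all genes below. The library ranges of PRO and DIFF did not overlap for 7 of the 9 genes in WT, as was so for 71.9% of all genes tested, and for all 9 in p27KO, as was so for 79.8%. The 7 genes of WT were thus separate within each genotype. With the DIFF libraries of both genotypes pooled against all PRO libraries, only Igf2r of these 7 overlapped. Its WT PRO replicate 1 was at 39.1 CPM and its p27KO DIFF replicate 2 at 41.8 CPM. On that pooled rule, 59.5% of all genes tested did not overlap. The median log2 fold change of the 9 genes was -0.67 in WT and -0.49 in p27KO, against 0.00 and -0.03 over all genes tested.

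**Figure D1:**
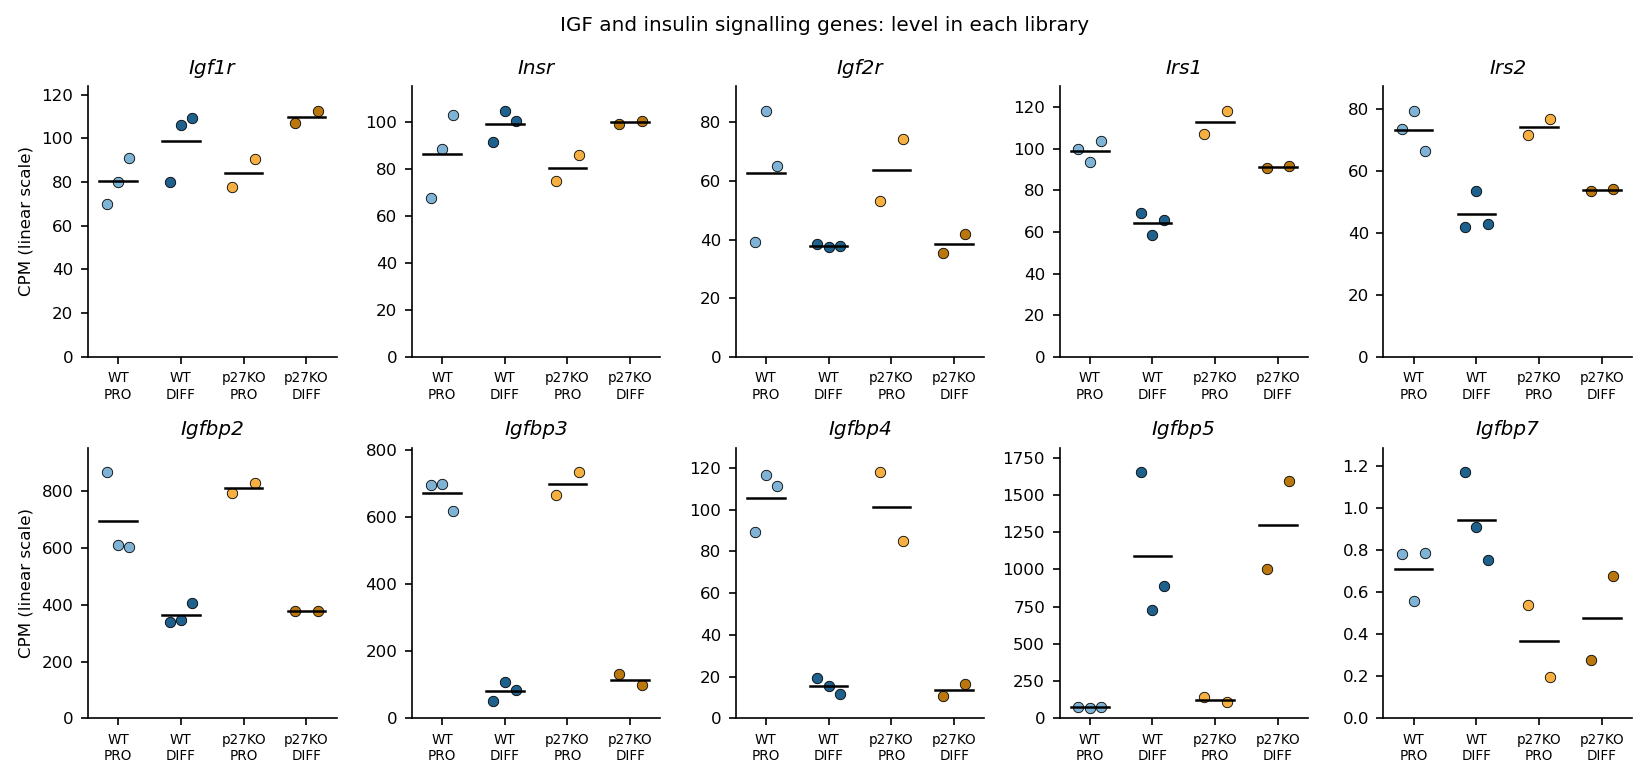
Level of each of the 10 genes in CPM (linear axis from 0, a scale of its own per gene) in each library, grouped as WT PRO, WT DIFF, p27KO PRO and p27KO DIFF. Points are libraries and bars are group means; Igfbp3, Igfbp4 and Igfbp5 separate PRO from DIFF by the widest margins, whereas Igf1r and Insr in WT overlap between the stages, and the axis of Igfbp7 ends near 1 CPM.

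Igf1r (ENSMUSG00000005533, GRCm38 chr7:67952827-68233668, plus strand) encodes the receptor tyrosine kinase through which IGF1 signals. In WT it was at 70.1, 79.9 and 90.8 CPM in neurospheres and at 80.0, 106 and 109 CPM at 2 + 1 DIV. In p27KO it was at 77.7 and 90.3 CPM and then at 107 and 113 CPM. The WT stages overlapped, although the value was higher at 2 + 1 DIV in each of the 3 same-numbered pairs, by 1.14- to 1.33-fold, and the p27KO stages did not overlap. The log2 fold change was 0.29 in WT (95% interval -0.03 to 0.60, adjusted p = 0.0933) and 0.36 in p27KO (-0.02 to 0.74, adjusted p = 0.0977, both from edgeR's quasi-likelihood test). With the replicate number as a block, shared by both genotypes, the same test called Igf1r higher in both, at adjusted p = 0.0219 and 0.0206. No label links same-numbered libraries of the genotypes, and same-numbered p27KO libraries did not deviate together (r = -0.138). The p27KO value is therefore not a paired result.

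Insr (ENSMUSG00000005534, chr8:3122061-3279617, minus strand), the insulin receptor gene, gave stage changes of about the size of those of Igf1r. WT libraries held 67.6, 88.5 and 103 CPM in neurospheres and 91.5, 105 and 100 CPM at 2 + 1 DIV. The p27KO libraries held 74.7 and 85.9 CPM and then 99.2 and 100 CPM. The WT stages overlapped, and in the pair numbered 3 the value was lower at 2 + 1 DIV. Neither change passed edgeR's test, with log2 fold changes of 0.19 (95% interval -0.13 to 0.50, adjusted p = 0.263) in WT and 0.29 (-0.10 to 0.67, adjusted p = 0.18) in p27KO.

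Igf2r (ENSMUSG00000023830, chr17:12682406-12769664, minus strand) encodes the receptor that clears IGF2 and carries lysosomal enzymes, and is an imprinted gene overlapped by the antisense transcript Airn, with which it shares no exon bases. WT neurospheres varied widely, at 39.1, 84.0 and 65.1 CPM, whereas WT cells at 2 + 1 DIV stood close together at 38.5, 37.4 and 37.9 CPM. In p27KO the values were 53.0 and 74.5 CPM and then 35.4 and 41.8 CPM. The lowest WT neurosphere library stood just above the highest WT DIFF library, so that the WT stages did not overlap but the first pair differed by only 1.01-fold. The p27KO stages did not overlap either, but p27KO DIFF replicate 2 stood above that WT neurosphere library. Igf2r in WT fell by 0.74 on the log2 scale (SE 0.24, adjusted p = 0.0234, edgeR), and its log2 fold change in p27KO was -0.75 (SE 0.30, adjusted p = 0.055), past the threshold once the replicate number was blocked (adjusted p = 0.0288) and in DESeq2 (0.0239). The WT call was lost without WT PRO replicate 2 (log2 fold change -0.46, adjusted p = 0.1), without WT PRO replicate 3 (adjusted p = 0.0583), without any one of the 3 WT DIFF libraries (adjusted p = 0.0583 to 0.0613) and with no filter (0.0663), all in edgeR.

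Irs1 (ENSMUSG00000055980, chr1:82233101-82291416, minus strand) and Irs2 (ENSMUSG00000038894, chr8:10984681-11008458, minus strand) encode the main adaptors of both tyrosine kinase receptors. Irs1 went from 100, 93.8 and 104 CPM in WT neurospheres to 69.1, 58.7 and 65.8 CPM at 2 + 1 DIV. The p27KO libraries went from 107 and 118 CPM to 91.0 and 91.6 CPM. The stages did not overlap in either genotype, and p27KO was higher than every WT library of the same stage. Irs1 in WT fell by 0.63 on the log2 scale (SE 0.08, adjusted p = 8.66e-05) and fell by 0.33 in p27KO (SE 0.10, adjusted p = 0.0169, both edgeR). Irs2 was at 73.3, 79.3 and 66.4 CPM in WT neurospheres and at 41.7, 53.4 and 42.9 CPM at 2 + 1 DIV. In p27KO it was at 71.5 and 76.6 CPM and then at 53.3 and 54.0 CPM. No DIFF library reached a PRO library, and Irs2 fell by 0.67 in WT (SE 0.12, adjusted p = 0.000566) and in p27KO fell by 0.49 (SE 0.14, adjusted p = 0.0138, both edgeR). In p27KO the calls of Irs1 and Irs2 were both lost without p27KO PRO replicate 2 (adjusted p = 0.1 and 0.0725), without p27KO DIFF replicate 1 (0.0718 and 0.0632) or without p27KO DIFF replicate 2 (0.0763 and 0.0616), always in edgeR's test with the lone library assumed to vary like the other groups. The p27KO call of Irs1 was also lost when only the 2 groups compared were fitted (adjusted p = 0.062, edgeR). Irs1 shares 2822 of its 9144 exon bases with Gm9747 on the opposite strand, at 13.5 to 33.8 CPM. Since no source used here states strand-aware counting, reads of the 2 genes within the shared bases cannot be told apart.

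Igfbp5 (ENSMUSG00000026185, chr1:72857932-72874884, minus strand) encodes a secreted IGF-binding protein that also attaches to the extracellular matrix. It was at 77.5, 69.5 and 74.3 CPM in WT neurospheres and at 1653, 729 and 890 CPM at 2 + 1 DIV. In p27KO it was at 140 and 106 CPM and then at 1002 and 1593 CPM. The stages were far apart in both genotypes, and among DIFF libraries the highest of each genotype stood well above the rest. The rise within same-numbered pairs was 21.3-, 10.5- and 12-fold in WT and 7.16- and 15.0-fold in p27KO. The log2 fold change was 3.87 (SE 0.32, adjusted p = 7.34e-06) in WT and 3.37 (SE 0.38, adjusted p = 9.54e-05) in p27KO by edgeR. Of all genes tested, 0.373% and 0.513% rose as far or further. The filter on low counts drops genes under 1 CPM in every PRO or every DIFF library, so such shares leave them out. Irs4, another gene of the pathway, was dropped. With genes kept at 1 CPM or more in at least 4 libraries, its log2 fold change in WT was 4.15 (SE 0.83).

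Markers of other cells moved with the rise of Igfbp5, and their part in it was not tested. The 8 astrocyte markers, of which 6 rose in each genotype, summed to 901 to 1129 CPM in WT PRO and 2872 to 3459 CPM in WT DIFF, and to 1017 to 1255 CPM and 3227 to 3326 CPM in p27KO. The 8 mural markers summed to 2.19 to 2.92 CPM in WT PRO and 30.0 to 69.4 CPM in WT DIFF, and to 1.74 to 2.31 CPM and 37.7 to 99.3 CPM in p27KO. Only 1 of them, Acta2, passed the filter on low counts, and it rose. Among the rest, Pdgfrb was at most at 0.295 CPM in PRO libraries and at 2.19 to 9.49 CPM in DIFF libraries, while Rgs5 was at most at 0.672 CPM and Kcnj8 at most at 0.102 CPM. In such bulk samples, a change in the number of cells of a type and a change in RNA per cell cannot be told apart.

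Igfbp3 (ENSMUSG00000020427, chr11:7206086-7213923, minus strand), which encodes the main IGF carrier of the blood, was among the abundant IGFBP transcripts of neurospheres. It was at 695, 698 and 619 CPM in WT neurospheres and at 51.6, 107 and 83.5 CPM at 2 + 1 DIV. In p27KO it went from 665 and 734 CPM to 132 and 99.5 CPM. The lowest PRO library was several times above the highest DIFF library. Igfbp3 in WT fell by 3.06 on the log2 scale (SE 0.25, adjusted p = 6.16e-06) and in p27KO fell by 2.62 (SE 0.30, adjusted p = 9.36e-05, both edgeR), and 1.53% and 1.28% of all genes tested fell at least as far.

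Igfbp4 (ENSMUSG00000017493, chr11:99041244-99054392, plus strand), whose product restrains IGF action until it is cleaved, fell to a similar degree from a lower level. WT neurospheres held 89.3, 117 and 112 CPM, and WT cells at 2 + 1 DIV held 19.3, 15.6 and 11.7 CPM. The p27KO libraries held 118 and 85 CPM and then 10.9 and 16.2 CPM. No libraries overlapped between stages. Igfbp4 in WT fell by 2.78 on the log2 scale (SE 0.22, adjusted p = 4.59e-06) and in p27KO fell by 2.93 (SE 0.28, adjusted p = 2.6e-05, both edgeR), and 2.07% and 0.871% of all genes tested fell at least as far. The summed CPM of the 10 endothelial markers was lower at 2 + 1 DIV as well, mostly through 1 gene, Flt1. The sum was at 14.8 to 51.7 CPM in WT PRO and 6.48 to 14.0 CPM in WT DIFF, and at 23.8 to 37.1 CPM and 7.45 to 14.6 CPM in p27KO. In WT, Flt1 fell from 11.5 to 47.7 CPM to 0.953 to 3.87 CPM, while Kdr rose from 1.64 to 2.26 CPM to 4.27 to 9.78 CPM. Both moved the same way in p27KO. The other 8 did not pass the filter, and Cdh5 and Cldn5 were at 0 in every library. The sum therefore does not show a fall of the marker list as a whole. The part of endothelial cells in the falls of Igfbp3 and Igfbp4 was not tested.

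Igfbp2 (ENSMUSG00000039323, chr1:72824503-72852474, plus strand), which encodes an IGFBP of the developing and adult brain, lies next to Igfbp5, and the genes converge with 5457 bases between them. The WT neurospheres were at 868, 611 and 603 CPM and the WT cells at 2 + 1 DIV at 338, 347 and 406 CPM. In p27KO the values were 795 and 831 CPM and then 378 CPM in both libraries. The stages did not overlap, and the neighbours moved in opposite directions. Igfbp2 in WT fell by 0.94 on the log2 scale (SE 0.14, adjusted p = 0.000222) and in p27KO fell by 1.13 (SE 0.17, adjusted p = 0.000401, both edgeR), a size that 14% and 10.4% of all genes tested reached.

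Igfbp7 (ENSMUSG00000036256, chr5:77349240-77408041, minus strand), whose product is related to the IGFBPs but binds IGFs weakly, was barely detected. WT libraries held 0.782, 0.558 and 0.784 CPM in neurospheres and 1.17, 0.912 and 0.751 CPM at 2 + 1 DIV, and p27KO libraries 0.537, 0.197, 0.277 and 0.675 CPM. The stages overlapped in both genotypes at 4 to 23 counts per library, the p27KO libraries stood below the WT libraries of the same stage, and 85 of its exon bases are shared with Polr2b on the opposite strand. A fit with no filter gave a log2 fold change of 0.32 in WT (95% interval -0.64 to 1.29, adjusted p = 0.636, edgeR), so that no stage difference was detectable at this depth, and the genotype difference at 2 + 1 DIV had an adjusted p of 0.764 in that fit.

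**Figure D2:**
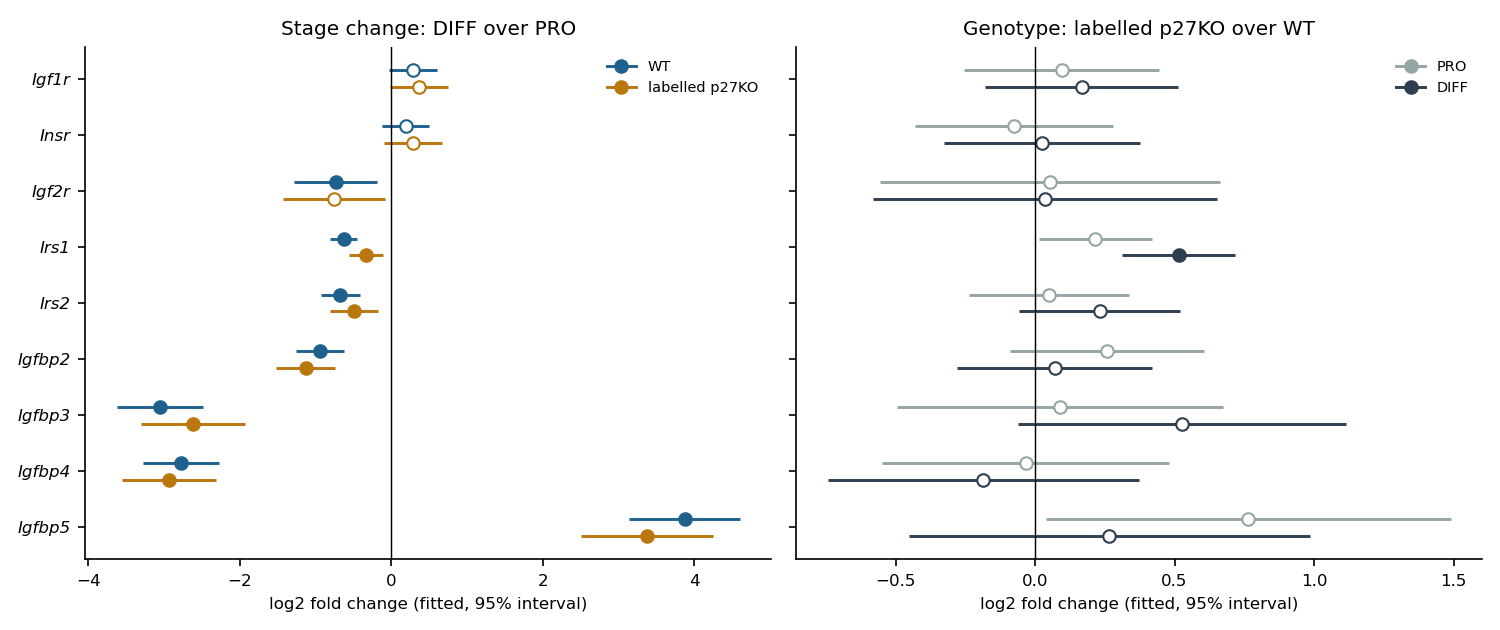
Fitted log2 fold changes of the 9 genes tested, with 95% intervals, for the change from PRO to DIFF in each genotype (left) and for libraries labelled p27KO against WT at each stage (right; the horizontal scales differ). Filled points passed an adjusted p of 0.05 and open points did not; the intervals of both genotypes' stage changes overlap for every gene, and Irs1 at DIFF is the one filled point on the right.

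To set the binding protein genes side by side, the make-up of their transcripts was compared on a scale corrected for length, as CPM per kb of the principal transcript. In WT neurospheres Igfbp2 made up 62.2% ± 4.5 (SD, n = 3) of the summed CPM per kb of the 5 genes and Igfbp3 33.0% ± 3.59, with Igfbp5 at 1.46% ± 0.162. In WT cells at 2 + 1 DIV, Igfbp2 made up 56.5% ± 9.02 (SD, n = 3), Igfbp5 35.6% ± 11.7 and Igfbp3 6.97% ± 3.19. By these means Igfbp5 stood behind Igfbp2 at 2 + 1 DIV, where Igfbp3 stood in neurospheres, but in WT DIFF replicate 1 Igfbp5 was at 49.0% and above Igfbp2 at 46.1%. The ranges of Igfbp5 and Igfbp3 did not overlap between stages. In p27KO, Igfbp5 went from 2.15% ± 0.480 to 38.3% ± 8.24 (SD, n = 2) and Igfbp3 from 30.1% ± 1.18 to 8.72% ± 2.65. The summed level was lower at 2 + 1 DIV, at 436 to 561 CPM per kb in WT against 759 to 988 in neurospheres. With the merged exons of each gene as its length, a choice made after seeing the data, Igfbp5 at 2 + 1 DIV was at 43.2% in WT and 46.3% in p27KO, and in p27KO it then stood above Igfbp2 at 44.8%.

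**Figure D3:**
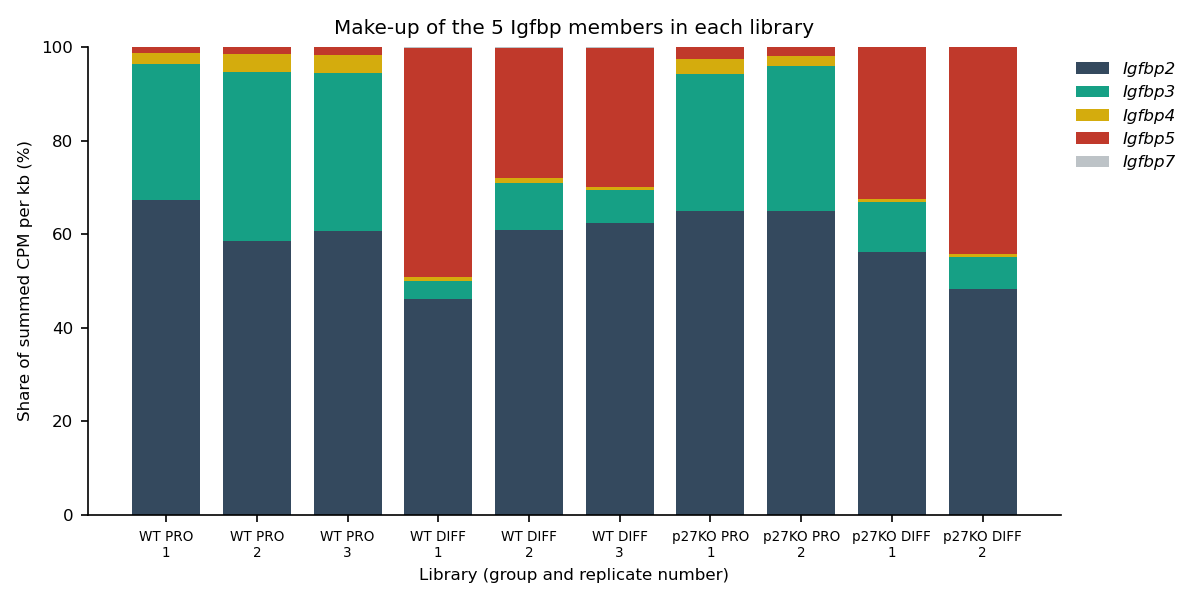
Share of each Igfbp gene in the summed CPM per kb (principal transcript) of the 5 genes, in percent, for each of the 10 libraries. Igfbp3 fills 29.1% to 36.1% of WT PRO libraries and 3.79% to 10.2% of WT DIFF libraries, and Igfbp5 rises from at most 2.48% in PRO libraries to at least 27.8% in DIFF libraries.

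On the same scale, all receptor and adaptor transcripts were far below Igfbp2. In WT neurospheres, Irs2 was at 11.5 ± 1.02 and Irs1 at 10.8 ± 0.545 CPM per kb (SD, n = 3), Insr at 9.23 ± 1.89, Igf2r at 7.06 ± 2.54 and Igf1r at 7.03 ± 0.910, against 531 ± 115 for Igfbp2. In WT cells at 2 + 1 DIV the order of the means had turned, with Insr at 10.6 ± 0.726 and Igf1r at 8.64 ± 1.42 above Irs2 at 7.28 ± 1.02, Irs1 at 7.06 ± 0.583 and Igf2r at 4.27 ± 0.0643 CPM per kb. In p27KO at 2 + 1 DIV, Insr was at 10.7 ± 0.0924, Irs1 at 9.99 ± 0.0510, Igf1r at 9.62 ± 0.360, Irs2 at 8.48 ± 0.0810 and Igf2r at 4.34 ± 0.510 CPM per kb (SD, n = 2), so that Irs1 there stood above Igf1r. Most neighbours in the WT orders overlapped between libraries, and with merged exons as the length Insr was at 7.19 and Igf1r at 5.87 CPM per kb in WT at 2 + 1 DIV, Igf1r then below both adaptors.

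The promoters of the 4 IGFBP genes that changed are shown because Igfbp5 rose where the others fell. They are the 250 bases before the RefSeq start on the gene's strand (GRCm38.p6), with matches to the motifs searched in capitals: a TATA-like box, written as TATANA or else as TATTTA, in the last 60 bases on the gene's strand, and on both strands the SP1 box (GGGCGG), the E-box (CACGTG), the FoxO core (GTAAACA) and the E2F sites, written as TTTCCCGC or as TTTGGCGC. The motifs were chosen after the sequences were seen, and no capitals overlap another motif. The regions are chr1:72874866-72875115 (minus) for Igfbp5, chr11:7213924-7214173 (minus) for Igfbp3, chr11:99040994-99041243 (plus) for Igfbp4 and chr1:72824230-72824479 (plus) for Igfbp2.
Igfbp5: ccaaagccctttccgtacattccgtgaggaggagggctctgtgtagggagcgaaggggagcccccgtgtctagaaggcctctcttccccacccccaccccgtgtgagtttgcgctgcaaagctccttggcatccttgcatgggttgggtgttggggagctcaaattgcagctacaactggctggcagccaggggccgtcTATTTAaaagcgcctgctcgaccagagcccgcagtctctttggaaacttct
Igfbp3: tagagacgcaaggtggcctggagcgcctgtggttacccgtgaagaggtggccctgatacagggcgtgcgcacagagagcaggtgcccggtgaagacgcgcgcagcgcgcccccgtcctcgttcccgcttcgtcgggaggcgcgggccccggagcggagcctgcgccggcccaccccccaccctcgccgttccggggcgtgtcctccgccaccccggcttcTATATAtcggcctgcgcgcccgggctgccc
Igfbp4: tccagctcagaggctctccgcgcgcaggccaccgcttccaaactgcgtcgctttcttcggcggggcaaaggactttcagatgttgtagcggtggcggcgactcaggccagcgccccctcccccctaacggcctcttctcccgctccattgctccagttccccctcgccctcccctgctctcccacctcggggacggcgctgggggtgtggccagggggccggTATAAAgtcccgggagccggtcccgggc
Igfbp2: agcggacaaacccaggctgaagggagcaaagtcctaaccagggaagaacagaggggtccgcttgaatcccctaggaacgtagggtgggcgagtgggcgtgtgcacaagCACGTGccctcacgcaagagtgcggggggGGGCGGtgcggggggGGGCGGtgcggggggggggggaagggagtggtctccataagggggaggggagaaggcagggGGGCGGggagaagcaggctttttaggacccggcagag
Igfbp5, Igfbp3 and Igfbp4, the genes with the widest stage changes, each hold a TATA-like match. It is TATTTA in Igfbp5, where it begins 51 bases before the start, and of the form TATANA in Igfbp3 and Igfbp4, where it begins 30 and 28 bases before it. A match of either form was present in 3 of the 9 genes with a promoter entry and in 6.17% of 32851 mouse promoters. The last 19 bases shown for Igfbp5 lie inside its longer GENCODE gene. Igfbp2 has no such match and holds 3 copies of GGGCGG, found in 32.7% of promoters, and a CACGTG, found in 6.02%. The SP1 box was present in 6 of the 9 genes and the E-box in 4, so neither was particular to Igfbp2. The second promoter entry of Igfbp2, not shown, held no match to any motif searched. Irs2 alone held an E2F site, in the first of the forms searched, found in 0.895% of promoters. The FoxO core was in none of the 9 genes and in 3.17% of all promoters. Matches of letters are not evidence of binding.

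Other genes of the pathway were read from a list of 62 genes, of which 48 were tested. In WT, 16 were higher and 13 lower at 2 + 1 DIV, and in p27KO 16 were higher and 12 lower, so that 29 and 28 of the 48 were called, where 67.4% and 57.7% of all genes tested were. The median log2 fold change of the list was -0.04 in WT and 0.00 in p27KO, close to all genes tested.

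The ligands were low throughout. Igf1 was at 0.208, 1.04 and 0.461 CPM in WT neurospheres and at 3.05, 8.0 and 2.69 CPM at 2 + 1 DIV, and in p27KO at 0.454 and 0.295 CPM and then at 3.25 and 3.64 CPM. It was higher in every DIFF library than in every PRO library but did not pass the main filter. With genes kept at 1 CPM or more in at least 4 libraries, its log2 fold change by edgeR was 2.92 in WT (SE 0.58) and 3.11 in p27KO (SE 0.75). Igf1 passed that filter through its DIFF libraries, where it is higher. These values are therefore a description and no separate test of the rise. Igf2 was at 0.496 to 1.98 CPM over all libraries, with a WT log2 fold change of 0.15 under that filter (95% interval -0.91 to 1.22). Ins1 was at 0 in every library, and 0 counts allow up to 3 counts, or 0.119 to 0.156 CPM, for counting error only. Ins2 had 1 count in 1 library. Igfbp1 and Igfbp6, further binding proteins, were at most at 0.0492 and 0.458 CPM.

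Among the proteases of IGFBPs and their inhibitors, 2 of 3 genes tested were lower in each genotype and none higher. Over all genes tested, 33.9% were lower in WT and 30.2% in p27KO. Stc1 and Stc2 encode stanniocalcins, secreted inhibitors of the IGFBP-cleaving protease PAPP-A. Stc1 went from 14.9 ± 2.47 to 2.50 ± 0.666 CPM in WT (SD, n = 3) and from 17.2 ± 2.02 to 2.24 ± 0.694 CPM in p27KO (SD, n = 2). On the log2 scale Stc1 fell by 2.59 in WT and fell by 2.95 in p27KO (adjusted p = 8.79e-06 and 3.04e-05, edgeR), and Stc2 fell by 2.04 in WT and fell by 2.16 in p27KO (2.23e-06 and 1.41e-05). Pappa itself was at 0.0461 to 0.763 CPM and Pappa2 at most at 0.104 CPM, and neither was tested.

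Among 11 genes of the mTOR branch, 4 were higher and 5 lower in WT, and 4 were higher and 4 lower in p27KO. The share called over all genes tested was 67.4% in WT and 57.7% in p27KO. Eif4ebp1, which encodes a repressor of cap-dependent translation that mTOR inactivates, went from 16.9 ± 1.75 to 3.59 ± 0.865 CPM in WT (SD, n = 3) where it fell by 2.23 on the log2 scale, and fell by 2.32 in p27KO (adjusted p = 1.72e-05 and 9.37e-05, edgeR). Igf2bp2, which encodes an IGF2 mRNA-binding protein, fell by 2.23 in WT and fell by 2.35 in p27KO (adjusted p = 0.0029 and 0.0125, edgeR). Of the 9 genes of PI3K and AKT, 2 were higher and 2 lower in each genotype, and of the 6 other receptor and adaptor genes tested, 1 was higher and 1 lower. Irs4, a further IRS adaptor gene, did not pass the filter. It was at 0.0798 to 0.277 CPM in WT PRO and 1.12 to 6.97 CPM in WT DIFF. In p27KO it was at 0.0413 to 0.0984 CPM and then at 0.634 to 1.30 CPM.

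Among 6 kinases and factors under AKT, 4 were higher and 1 was lower in each genotype. Over all genes tested, 67.4% were called in WT and 57.7% in p27KO, with 33.5% and 27.5% higher. The FoxO genes, whose products AKT inhibits, are named although the naming rule did not pick them, a choice made after their values were seen. Foxo1, Foxo3 and Foxo4 rose in WT by log2 fold changes of 0.83, 0.93 and 0.86 and in p27KO by 0.76, 0.97 and 0.75, and Foxo6 gave 0.39 in WT (adjusted p = 0.35, edgeR) and 1.12 in p27KO (adjusted p = 0.0582). Among 11 negative regulators tested, 5 were higher and 1 lower in each genotype, to be read against the same shares over all genes. Socs2, which encodes an inhibitor of growth hormone signalling, went from 3.86 ± 1.42 to 14.3 ± 1.83 CPM in WT (SD, n = 3), and its log2 fold change was 1.89 in WT and 2.34 in p27KO (adjusted p = 0.000135 and 0.000216, edgeR).

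**Figure D4:**
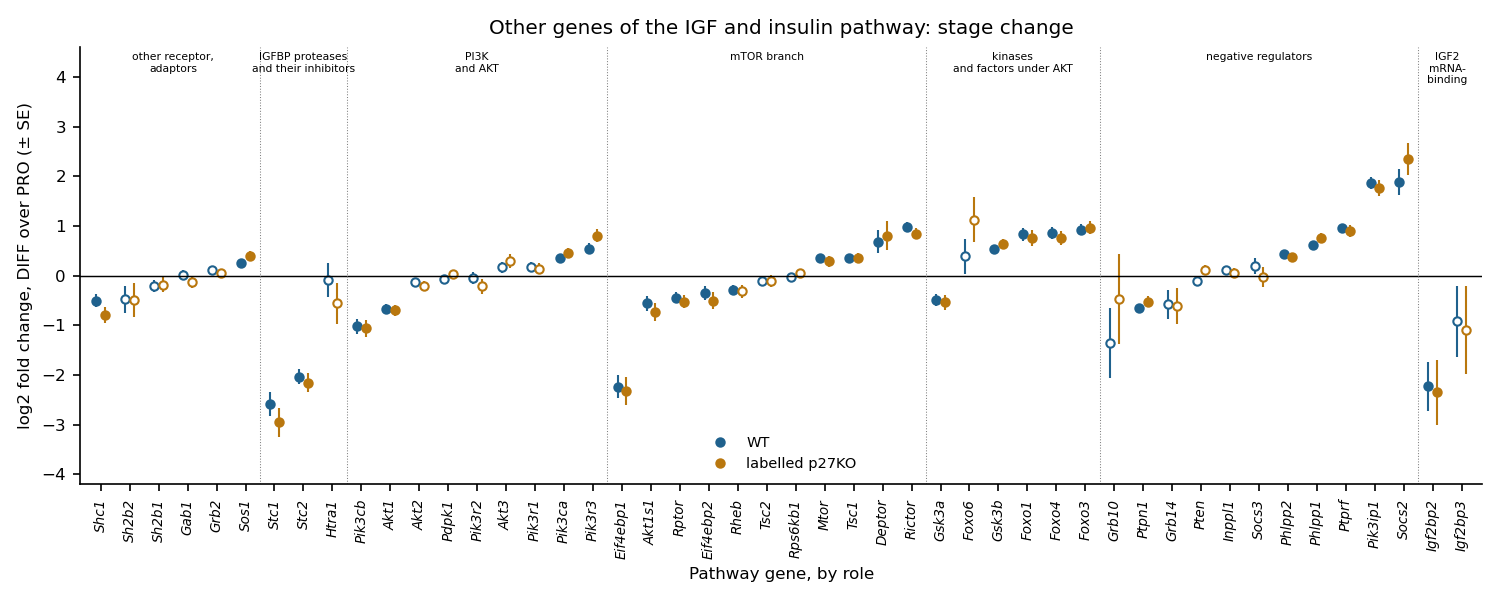
Log2 fold change from PRO to DIFF, with its standard error, of the 48 other pathway genes tested, ordered by role, in WT and in libraries labelled p27KO. Filled points passed an adjusted p of 0.05; Stc1, Stc2, Eif4ebp1 and Igf2bp2 lie below -2 in both genotypes, and the pairs of points lie close together for most genes.

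Whether the stage change depended on genotype was tested with the interaction term. None of the 9 genes was called by edgeR, where 0.389% of all genes tested were, and 1 had an unadjusted p under 0.05. DESeq2 also called none. That gene was Irs1, whose fall was smaller in p27KO by 0.30 on the log2 scale (95% interval 0.01 to 0.59, adjusted p = 0.9997, edgeR). The intervals were wide for the binding proteins, from -1.53 to 0.53 for Igfbp5 and from -0.40 to 1.27 for Igfbp3. Differences within these bounds were thus not excluded with 2 or 3 libraries per group. None of the 48 other pathway genes was called, and none had an unadjusted p under 0.05, nor did DESeq2 call any.

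In neurospheres, none of the 9 genes differed between libraries labelled p27KO and WT libraries at an adjusted p under 0.05 by edgeR or by DESeq2, where 0.0156% of all genes tested were called by edgeR. An unadjusted p under 0.05 was reached by 2, Igfbp5 and Irs1, the same 2 whose library ranges did not overlap, as was so for 17.8% of all genes tested. Igfbp5 was at 73.8 ± 4.0 CPM in WT neurospheres (SD, n = 3) and at 123 ± 23.8 CPM in p27KO (SD, n = 2), a log2 difference of 0.76 (95% interval 0.04 to 1.49). Irs1 differed by 0.22 on the same scale (0.01 to 0.42). None of the 48 other pathway genes was called by edgeR or DESeq2, and 1 had an unadjusted p under 0.05.

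At 2 + 1 DIV, Irs1 was the one gene of the 9 called, higher in the libraries labelled p27KO, where 2.04% of all genes tested were called and 1.91% were higher. It was at 64.5 ± 5.33 CPM in WT (SD, n = 3) and at 91.3 ± 0.467 CPM in p27KO (SD, n = 2), a log2 difference of 0.52 (SE 0.09, adjusted p = 0.0163, edgeR). Its library ranges did not overlap, as was so for 1 of the 9 genes and for 37.3% of all genes tested. The call was lost when only the 2 groups compared were fitted (adjusted p = 0.0808), without WT DIFF replicate 2 (0.0537), and without p27KO DIFF replicate 1 (0.146) or 2 (0.136), while the difference stayed between 0.47 and 0.56. Gm9747, which overlaps Irs1, was at 13.5 to 21.5 CPM in WT DIFF and 21.4 to 25 CPM in p27KO DIFF, and its part in the difference was not tested. For Irs2 the log2 difference was 0.23 (95% interval -0.06 to 0.52), for Igfbp3 0.53 (-0.06 to 1.11) and for Igfbp5 0.27 (-0.45 to 0.98), none past the threshold by edgeR. None of the 48 other pathway genes was called by edgeR, 6 had an unadjusted p under 0.05, and DESeq2 called 2.

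The genes whose log2 CPM followed each gene most closely over the 10 libraries are given as a description, since stage is shared by all. Igfbp5 was most like Cdh6 (Pearson's r = 0.994), Igfbp3 most like Lsm11 (0.998), Igfbp4 most like Gm44751 (0.996) and Igfbp2 most like Mrps18a (0.987). For these 4, between 1862 and 2598 genes reached an r of 0.9. Irs2 was most like Sec24a (0.983) and Irs1 most like Neurl1b (0.979), with 944 and 266 genes at 0.9 or more. The receptors stood nearer to few genes, with Insr most like Tent4b (0.938, 3 genes at 0.9 or more), Igf2r most like Abhd2 (0.938, 16 genes) and Igf1r most like Dst (0.956, 19 genes).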

How the data were processed

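The authors aligned reads to the mouse transcriptome with STAR and deposited estimated counts per gene from RSEM, as whole numbers without normalization; the submitters' processing notes name GRCm38, and strand-aware counting is not given in the sources used here. All columns were mapped to samples by their titles, with 0 left over. A gene was discarded if 4 or more of the 10 libraries held under 1 CPM of it, as the study's methods word it, which left 12859. TMM-scaled counts were modelled with 1 mean per group (4 groups) by the robust quasi-likelihood method of edgeR 4.0.16 (R 4.3.3, limma 3.58.1), two-sided, with Benjamini-Hochberg adjustment over all genes tested and a threshold of 0.05; the study used DESeq2, which was an alternative here (1.42.0). The steps were tested on simulated counts. CPM values use library totals, log2 CPM in correlations a prior count of 2. With totals near 22701546 counts per library on average, the spread among 2 or 3 libraries limits precision more than counting error does.

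The genes, lists, marker lists and tests were chosen with earlier results of these data known. Named genes were the 10 genes, the ligands, the gene most like each, and the 4 pathway genes with the largest absolute stage change past the threshold in each genotype; others are named for a role or an overlap. Same-numbered WT libraries of both stages deviated together (r = 0.248, 0.301 and 0.395, against -0.221 to -0.0874 for different numbers), though no label says what the numbers mark. Deviations from a group mean sum to 0, so positive values for the same numbers push those for different numbers below 0. The negative values are thus no separate evidence of pairing. Same-numbered libraries were set side by side as pairs, and the number was a block in alternative fits. The main fit held no block. For p27KO r was -0.138 for the same numbers and 0.138 for different ones, opposite by construction with 2 libraries per stage. No library was a copy of another, since chi-square per gene between replicates was 13.1 to 58.0. Alternatives were other scaling, DESeq2, filters, fits of the groups compared, the block, each library left out, and gene lengths. Promoter sequences are RefSeq's (GRCm38.p6), which matched 9 of the 10 genes (not Insr). Python 3.11.15, pandas 2.3.3 and matplotlib 3.10.9 were used for tables and plots.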

Additional observations from a re-analysis of the deposited data

How the results depend on the processing

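The stage changes of all 9 genes tested kept their direction under every alternative run. In WT, 6 to 8 of the 9 genes were called, and in p27KO 4 (without p27KO PRO replicate 2, DIFF replicate 1 or DIFF replicate 2) to 8. The replicate block gave 8 in each genotype, adding Igf1r in both and Igf2r in p27KO, and kept Irs1 at 2 + 1 DIV; with the p27KO numbers crossed, 8 and 7 were called. The genotype call at 2 + 1 DIV went from 1 to 0 when only the groups compared were fitted, and to 0 to 1 with 1 library left out. Over all genes, the interaction gave 50 calls, 157 with DESeq2, 79 with no filter and 0 to 89 with 1 library left out. Genotype in neurospheres gave 2 calls, 40 with DESeq2, 14 with no filter, 9 with the other filter, 1 with the block or only the groups compared, and 1 to 4 with 1 library left out. Genotype at 2 + 1 DIV gave 262 calls, 631 with DESeq2, 39 with only the groups compared, 524 with crossed numbers and 99 to 282 with 1 library left out. The cause of these shifts was not tested.

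Log2 differences not past the threshold changed sign as follows. In neurospheres, Insr went to 0.0080 with the block and 0.0078 with crossed numbers, and Irs2 to -0.0095 and -0.0096. With 1 library left out, the interaction ranged from -0.0610 to 0.21 for Igf1r, -0.0466 to 0.25 for Insr, -0.28 to 0.27 for Igf2r and -0.46 to 0.11 for Igfbp4. The genotype difference in neurospheres ranged from -0.0398 to 0.22 for Igf1r, -0.22 to 0.0724 for Insr, -0.23 to 0.31 for Igf2r, -0.0229 to 0.12 for Irs2, -0.0057 to 0.18 for Igfbp3 and -0.27 to 0.17 for Igfbp4. At 2 + 1 DIV it ranged from -0.0329 to 0.0865 for Insr, -0.0794 to 0.14 for Igf2r, -0.49 to 0.0715 for Igfbp4 and -0.10 to 0.69 for Igfbp5. The gene most like Igf1r became Gm36952 (r = 0.957) with a prior count of 0.5.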
